A study of Homo sapiens with 480 samples.

Results

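The 41 genes described here encode the machinery that licenses, starts and carries out DNA replication, and they were taken by symbol from a fixed list. All 41 had a row among the 27021 genes of each of the 5 deposited tables. The tables hold single-cell RNA sequencing of 480 cells of BJ, an established human fibroblast line of neonatal origin, in 5 groups of 96. BJ cells without reprogramming factors were the start, followed by cells at day 2 and day 8 of OSKM (OCT4, SOX2, KLF4, MYC) induced from virus. Cells of day 16 of the same factors were sorted by the surface epitope TRA-1-60, a marker of pluripotent cells, into a positive and a negative fraction. The labels report no TRA-1-60 sort for the other 3 groups. All groups thus share the BJ background, and the 4 groups after BJ share the viral factors. No label names more than 1 culture per group, so cells are not replicates of a condition, and no comparison of groups was tested.

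Replication is prepared in G1, when the origin recognition complex, CDC6 and CDT1 load the ring of MCM2 to MCM7 onto DNA, and geminin (GMNN) then keeps CDT1 from loading it again. At the start of S phase MCM10, CDC45 and the GINS complex turn the ring into an active helicase, and polymerases, the sliding clamp PCNA and its RFC loader follow at the fork. Many of these genes are driven by E2F factors, which cyclin-dependent kinases release from RB proteins, and they are low in cells that have left the cell cycle. Reprogramming to pluripotency goes along with division, and pluripotent cells are known for a short G1.

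A level is the mean, over the cells kept, of FPKM after each cell was rescaled to sum to 1000000; it is per transcript length. A gene is on in a cell at a rescaled value of 1 or more, and a share counts such cells among those kept, its exact binomial (Clopper-Pearson) 95% interval covering counting error only. Differences between groups are log2((mean + 1)/(mean + 1)), which understates the ratio of low genes. A call of 2-fold, higher or lower, requires a size of 1 or more and the same sign of the difference of mean log2(value + 1). Of the 480 cells 460 were kept, 92 BJ, 96 day-2, 92 day-8, 95 positive and 85 negative cells. The median kept cell had 5678 to 5915 genes on in the 5 groups, a narrow range, but 32 of 95 positive cells had fewer than 4000 genes on, against 3 of 85 negative cells. Depth in reads is unknown from FPKM. Nothing states that the tables were normalized together, and 15 genes, of which 0 were replication genes of the list, were on in 80% or more of the cells in BJ, day 2 and the positive fraction but in 25% or fewer of those at day 8 and in the negative fraction. All 8 fibroblast markers checked had a mean of 1 or more in BJ and in the negative fraction. Of 4 keratinocyte, 4 endothelial and 4 blood and immune markers, 1, 0 and 3 reached that mean at day 2, and the blood and immune ones 2 of 4 in negative cells.

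The share of cells with most of the replication genes on separated the negative fraction from every other group. At least 21 of the 41 genes were on in 74 of 92 BJ cells (80.4%, interval 70.9 to 87.97), in 49 of 96 day-2 cells (51.04%, 40.6 to 61.4) and in 68 of 92 day-8 cells (73.9%, 63.7 to 82.5). At day 16 this held for 55 of 95 positive cells (57.9%, 47.3 to 67.96) and for 1 of 85 negative cells (1.18%, 0.0298 to 6.38). The median number of genes on was 29 in BJ (range 4 to 38), 21.5 on day 2 (7 to 37) and 33 on day 8 (7 to 40); among positive cells it was 26 (6 to 40), among negative cells 7 (2 to 24). Positive and negative cells overlapped between 6 and 24 genes. Few cells sat at the border itself: 18 to 20 genes were on in 4 BJ, 6 day-2, 6 day-8, 5 positive and 1 negative cells, and 21 to 23 genes in 7, 4, 3, 3 and 0 cells.

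Depth moved with these shares within the groups. Among positive cells with 4000 or more genes on, 54 of 63 (85.7%, 74.6 to 93.3) had at least 21 replication genes on, with a median of 34, while 1 of the 32 shallower positive cells did, with a median of 13. The same limit gave 73 of 84 BJ cells (86.9%), 48 of 81 day-2 cells (59.3%), 67 of 88 day-8 cells (76.1%) and 1 of 82 negative cells (1.22%). Within this limit the median cell had 6422 genes and 13 of 15 housekeeping genes on in the positive fraction, and 5886 genes and 12 housekeeping genes on in the negative fraction. The part of depth in the lower shares of the shallow cells was not tested. The summed level of the 41 genes had a median of 3449 per cell in the positive fraction (lowest 212, highest 9159) and 474 in the negative fraction (32.9 to 1944), and the ranges overlapped.

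**Figure D1:**
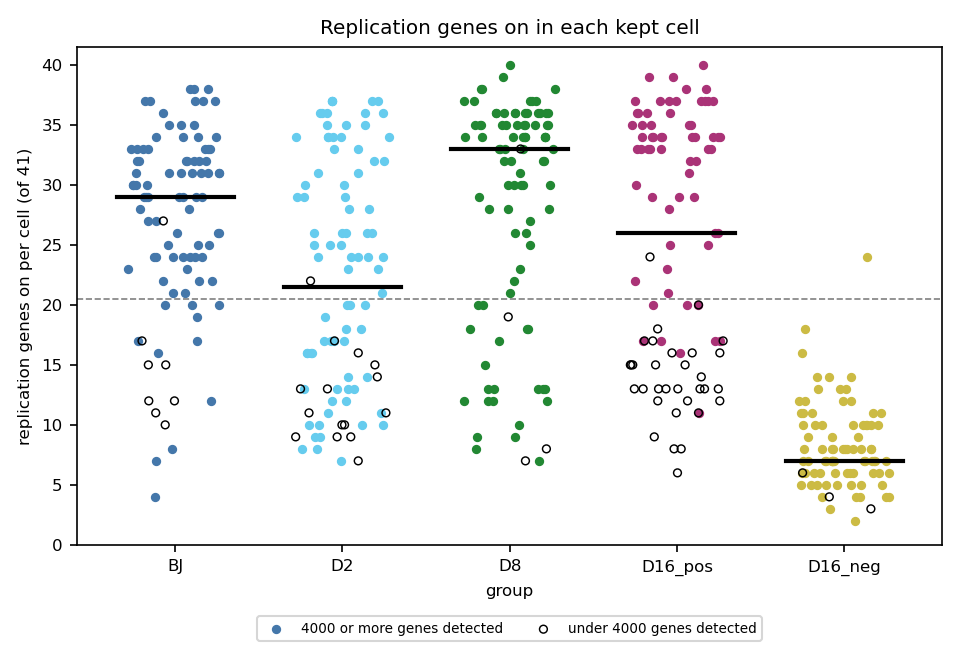
Number of the 41 replication genes on in each kept cell (vertical axis) by group; each point is 1 cell, open points are cells with fewer than 4000 genes detected, the black line is the median and the dashed line lies just below 21 genes. Medians are 29, 21.5, 33, 26 and 7 from left to right, and 1 negative cell lies above the dashed line.

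Between the fractions of day 16, 40 of the 41 genes were called 2-fold higher in the positive fraction and none was lower, where the same rule called 24.8% of all 14060 measured genes higher and 21.4% lower. The median log2 difference was 2.94 over the 41 genes and 0.06 over all measured genes. UNG was the gene not called (0.68), but it passed the line without 1 cell (1.33) and had a difference of mean log2(value + 1) of 1.28. By that second measure, which 1 high cell moves less than a ratio of means, 39 genes differed by 1 or more upwards and 0 downwards, beside 9.11% and 20.2% of all measured genes. The list was chosen with earlier results of these cells known, so this direction is not separate evidence. The sort also set apart cell states: pluripotent markers had a median summed level of 2673 in positive cells (145 to 15926) and 53.8 in negative cells (0 to 518), and fibroblast markers 1533 (47.2 to 12678) in positive and 10788 (3043 to 23022) in negative cells. The pluripotent markers include SOX2, which is also a viral factor here, and viral and cellular transcripts were not told apart. All 8 pluripotent markers had a mean of 1 or more in the positive fraction and 3 of 8 in the negative fraction, where LIN28A was at 0. Of the 8 fibroblast markers 6 and 8 did. The part of these states in the replication genes was not tested.

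The licensing genes were all called, with log2 differences between 1.88 and 5.15. CDC6, the ATPase that recruits MCM rings to origins, averaged 77.4 in positive cells, against 1.21 in negative cells, on in 66.3% and 5.88% of cells (log2 difference 5.15). CDT1, its partner in loading, averaged 17.8 in positive cells, against 0.882 in negative cells, and its inhibitor GMNN 262 in positive cells, against 43.8 in negative cells. ORC1 and ORC6, subunits of the origin recognition complex, had means of 16.4 and 86.6 in positive cells, against 1.797 and 3.11 in negative cells. The negative cells thus held GMNN more often than the factor it restrains: GMNN was on without CDT1 in 36 of 85 negative cells, both were on in 2, and CDT1 without GMNN in 1. In the positive fraction both were on in 46 of 95 cells, GMNN without CDT1 in 25 and CDT1 without GMNN in 6. The lean to GMNN was thus shared by the other groups: 31 against 6 of 92 BJ cells. It was 34 against 4 of 96 day-2 cells and 20 against 3 of 92 day-8 cells.

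By the ratio of means, helicase and fork genes had the widest differences as a group, with log2 differences of at least 4.38. Their shares were 52.6 to 69.5% of positive and 1.18 to 5.88% of negative cells. By the difference of mean log2(value + 1) their median was 2.75, below licensing genes (3.30) and nucleotide supply genes (2.97). By the difference of mean log2(value + 1), RFC3 was the gene furthest apart of the 41 (4.18), before GINS2 (4.08). GINS2, a subunit of the GINS complex, averaged 175 in positive cells, against 2.15 in negative cells. By the ratio of means GINS2 was the gene furthest apart of the 41 (5.80). Its single cells ran in the positive fraction from 0 (median 46.9) to 4439.7, and in the negative fraction from 0 (median 0) to 122, and the ranges overlapped. MCM10, a scaffold of the starting fork, averaged 30.9 in positive cells, against 0.0289 in negative cells and was on in 1 negative cell. One positive cell held 38.2% of its sum, and the difference was 4.95 with that cell and 4.30 without it. In the negative fraction the top cell held over 50% of the summed level for 10 of the 41 genes, and all of it for MCM10, E2F1 and CCNE2, so those means describe single cells; without 1 cell the difference of GINS2 was 6.67. Polymerase and primase genes followed at 1.99 to 4.71: PRIM1, which makes the RNA primer, averaged 56.9 in positive cells, against 1.22 in negative cells, and POLE, the catalytic subunit of the leading-strand polymerase, 15.97 in positive cells, against 0.471 in negative cells.

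Among clamp and loader genes the spread was from 1.49 to 4.82. The loader subunit RFC3 averaged 104 in positive cells, against 2.73 in negative cells (4.82), whereas PCNA averaged 433 in positive cells, against 153 in negative cells (1.49), the smallest called difference of the list. Nucleotide supply genes spanned 1.73 to 4.74. RRM2, the S-phase small subunit of ribonucleotide reductase, averaged 91.6 in positive cells, against 2.46 in negative cells (4.74), and its large subunit RRM1 167 in positive cells, against 32.8 in negative cells (2.31). Of the G1 to S regulators, CCNE1, a cyclin that activates CDK2, was on in 34.7% of positive and 5.88% of negative cells, and E2F1, an E2F activator, in 24.2% and 1.18%. FEN1, which trims flaps of lagging-strand fragments, averaged 179 in positive cells, against 11.1 in negative cells, CHAF1A, the large subunit of the histone chaperone CAF-1, 35.4 in positive cells, against 1.48 in negative cells, and LIG1, which seals nicks, 35.3 in positive cells, against 5.86 in negative cells.

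**Figure D2:**
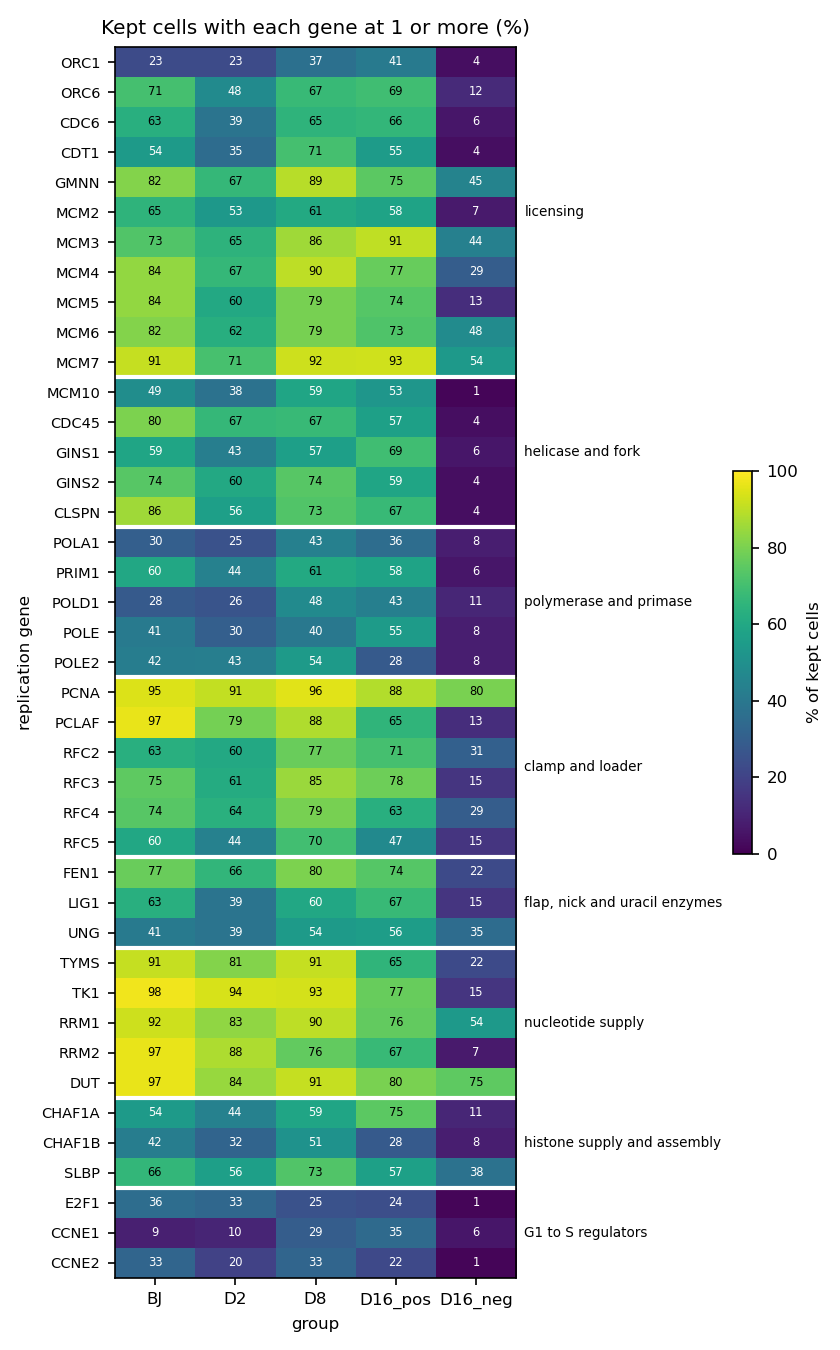
Share of kept cells (%, colour and printed value) with each of the 41 replication genes at 1 or more, for the 5 groups in columns and genes in rows, grouped by role. The column of the negative fraction is dark apart from PCNA (80%), DUT (75.3%), MCM7 and RRM1 (54.1% each) and a few genes between 30.6 and 48.2%.

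Which replication genes stayed on in negative cells was asked against the BJ cells they came from. Of the 41 genes, 4 (PCNA, DUT, MCM7 and RRM1) were on in 50% or more of negative cells, against 30 of 41 in BJ cells, and the 4 were among those 30; of all genes on in any negative cell, 31.2% were on in that many. Of all 4982 genes with such a share in BJ, 80.8% had it in negative cells too, against 4 of 30 replication genes. Of all 4303 genes with such a share in positive cells it was 79.5%, against 4 of 32 replication genes. By level, 34 of the 41 genes were called 2-fold lower in the negative fraction than in BJ and none was higher, where 13% of all 13163 measured genes were called lower and 31.4% higher. By the difference of mean log2(value + 1), 36 genes were lower by 1 or more and 0 higher, beside 6.83% and 18.8% of all. The median log2 difference was -2.47 over the 41 genes and 0.51 over all measured genes. At the edge of the 50% line stood MCM7 and RRM1 at 46 of 85 cells inside it and MCM6 at 41 of 85 outside it. The number past the line was 2 with all 96 cells per group, and also 2 when on meant a value of 10 or more.

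PCNA, the clamp that also serves DNA repair, was on in 80% of negative cells (69.9 to 87.9) and 94.6% of BJ cells (87.8 to 98.2). Its mean was 153 in the negative fraction and 345 in BJ cells (-1.17), with cell medians of 142 and 166. Among cells with PCNA on the medians were 169.8 and 184, and the ranges of single cells overlapped widely, from 0 to 493 in negative and from 0 to 4371 in BJ cells. The 2-fold call for PCNA ended when 1 cell was left out (-0.97). PCLAF, a PCNA-binding protein of S phase, was much further apart, at 6.64 in the negative fraction and 319 in BJ cells (-5.39). PCNA was on without PCLAF in 60 of 85 negative cells, against 2 of 92 BJ cells. In the other groups this held for 17 of 96 day-2, 10 of 92 day-8 and 23 of 95 positive cells. PCLAF was on in 12.9% of negative cells, so the count of PCNA without PCLAF follows in part from the single shares.

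DUT, which removes dUTP from the nucleotide pool, was on in 75.3% of negative and 96.7% of BJ cells, with means of 27.2 and 94.1 (-1.75). Its single cells had the values lowest 0, median 15.6, highest 132 in the negative fraction and lowest 0, median 51.1, highest 917 in BJ, which overlap. TYMS, which makes the thymidylate, was on in 22.4% and 91.3%, and its mean was 8.63 in the negative fraction and 158 in BJ cells. RRM1 and RRM2 form 1 enzyme. RRM1 was on without RRM2 in 41 of 85 negative cells and in 1 of 92 BJ cells, while both were on in 5 and 84. The single shares in negative cells were 54.1% for RRM1 and 7.06% for RRM2. The count of the pair follows in part from these shares, and coupling of the subunits was not tested. RRM1 was also on without RRM2 in 9 of 96 day-2, 16 of 92 day-8 and 19 of 95 positive cells. RRM1 averaged 32.8 in negative and 105 in BJ cells (-1.65), with lowest 0, median 5.29, highest 226 in the one and lowest 0, median 81.9, highest 498 in the other. RRM2 averaged 2.46 in negative and 136 in BJ cells (-5.31), with lowest 0, median 0, highest 86.98 and lowest 0, median 95.5, highest 727. For RRM1 the ranges overlapped widely, while the median negative cell had no RRM2. RRM2B, the p53-induced small subunit that pairs with RRM1 outside S phase, lies outside the 41 genes. It was on in 83.5% of negative and 44.6% of BJ cells, with means of 31.7 and 5.16 (2.41). This was not particular to negative cells: RRM2B averaged 9.48 on day 2, 17.9 on day 8 and 44.04 in positive cells. TK1, the thymidine kinase of S phase, was on in 15.3% of negative and 97.8% of BJ cells, at means of 45.2 and 539.9.

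UNG, the glycosylase that removes uracil from DNA, was the gene whose level was furthest above BJ: 31.4 in the negative fraction and 17.2 in BJ cells (0.83), below the 2-fold line. Its share was 35.3% (25.2 to 46.4) and 41.3% (31.1 to 52.1), and 1 cell held 38% of its summed level, so that the difference was 0.18 without that cell. SLBP, which binds the stem-loop of histone mRNA, averaged 12.3 in negative and 37.8 in BJ cells (-1.54) and was on in 37.6% and 66.3%. GMNN averaged 43.8 and 129.6 (-1.54) and was on in 44.7% and 81.5%. Loader subunit RFC2 averaged 24.3 in negative and 49.5 in BJ cells (-0.996, just short of a call) and RFC4 32.04 and 87.5 (-1.42). With all 96 cells per group the difference of RFC2 was 0.29. RFC2 and RFC4 were on in 30.6% and 29.4% of negative and 63.04% and 73.9% of BJ cells, and the 4 loader genes RFC2 to RFC5 were on together in 0 of 85 negative cells, against 30 of 92 BJ cells; a count of 0 allows up to 3.53% by the limit of 3 cells and up to 4.25% by the exact interval. RFC3 and RFC5 were each on in 15.3% of negative cells, which by itself limits the count of cells with all loader genes on. At the low end, 18 of the 41 genes were on in fewer than 10% of negative cells, against 1, CCNE1, in BJ. The share of all genes below that line was not counted, so these counts have no background beside them. By the ratio of means, the 5 largest differences in level below BJ were those of CLSPN, a checkpoint adaptor at the fork (0.2104 and 49.7, -5.39), PCLAF, RRM2, GINS2 (2.15 and 107, -5.10) and the helicase cofactor CDC45 (0.837 and 50.01, -4.80). Their order rests on single cells: without the 1 negative cell that held 66.5% of the GINS2 sum its difference was -5.97, and without the one that held 86.1% of the CDC45 sum it was -5.51. By the difference of mean log2(value + 1) the 5 largest were TK1 (-7.26), PCLAF (-6.79), RRM2 (-5.82), TYMS (-4.83) and GINS2 (-4.42). CLSPN (-4.09) and CDC45 (-3.46) were not among them.

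**Figure D3:**
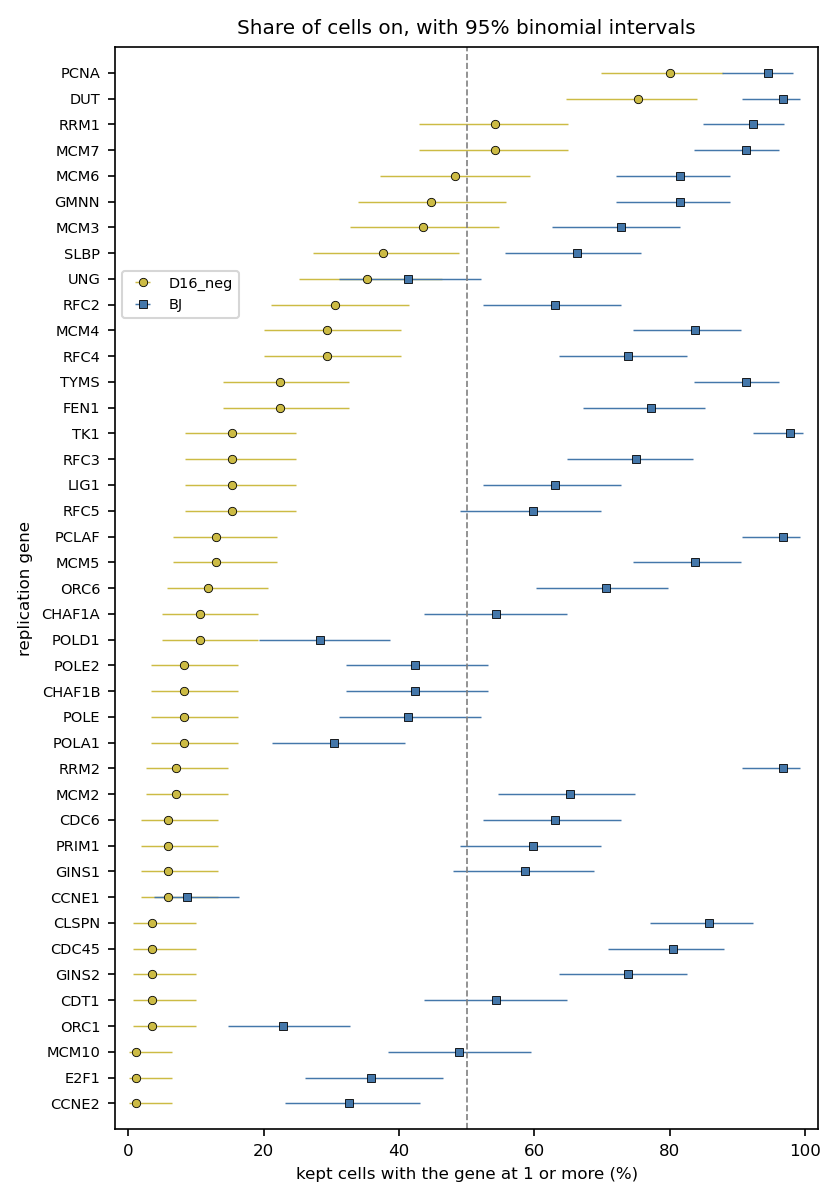
Share of kept cells (%) with each replication gene at 1 or more in the negative fraction (D16_neg, circles) and in BJ cells (squares), with exact binomial 95% intervals as bars and the dashed line at 50%. PCNA, DUT, RRM1 and MCM7 lie right of the line in negative cells, and the intervals of PCNA, UNG and CCNE1 overlap between the groups.

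The promoters of 4 genes at the extremes of the negative fraction are given for comparison, as the 250 bases before the RefSeq gene start in GRCh38.p14, a build other than that of the tables. PCNA and DUT were the genes on in most negative cells, and GINS2 and CDC6 those furthest below the positive fraction by the ratio of means. Capitals mark the E2F core, searched on both strands in the spellings TTCCCGC and TTGGCGC, and also TTCGCGC and TTGCCGC.
PCNA, chr20:5126623-5126872, minus strand: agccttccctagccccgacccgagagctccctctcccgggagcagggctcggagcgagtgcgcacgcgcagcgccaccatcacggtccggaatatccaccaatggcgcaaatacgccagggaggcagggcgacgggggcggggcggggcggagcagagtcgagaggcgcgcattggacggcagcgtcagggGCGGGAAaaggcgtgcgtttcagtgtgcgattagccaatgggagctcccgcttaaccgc
DUT, chr15:48330845-48331094, plus strand: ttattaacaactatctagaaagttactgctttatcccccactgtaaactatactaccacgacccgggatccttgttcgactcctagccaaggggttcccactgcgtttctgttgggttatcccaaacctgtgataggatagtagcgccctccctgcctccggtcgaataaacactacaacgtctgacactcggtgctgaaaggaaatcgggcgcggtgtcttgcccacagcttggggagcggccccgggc
GINS2, chr16:85688955-85689204, minus strand: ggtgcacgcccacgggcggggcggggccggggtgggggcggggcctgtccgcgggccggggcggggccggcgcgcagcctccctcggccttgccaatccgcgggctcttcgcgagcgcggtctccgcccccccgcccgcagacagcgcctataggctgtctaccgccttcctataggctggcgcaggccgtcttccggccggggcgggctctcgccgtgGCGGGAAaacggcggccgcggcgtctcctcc
CDC6, chr17:40287629-40287878, plus strand: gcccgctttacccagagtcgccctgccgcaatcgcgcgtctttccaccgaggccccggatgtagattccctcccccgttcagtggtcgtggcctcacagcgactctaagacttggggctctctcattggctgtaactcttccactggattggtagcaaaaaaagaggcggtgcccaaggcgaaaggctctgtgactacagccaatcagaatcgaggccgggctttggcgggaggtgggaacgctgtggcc
PCNA and GINS2 each held 1 E2F core, and DUT and CDC6 none, in these 250 bases. Over 300 bases, 250 before and 50 after the start, 26 of the 38 genes with a promoter in the RefSeq table held the core (68.4%), against 2710 of 15843 protein-coding promoters (17.1%). CDC6 was among these 26, with 1 core, and sites spelled otherwise were not counted. CCAAT, the box bound by NF-Y, was in 21 of 38 (55.3%) and in 36.4% of all, and TTTGAA, the CHR element of many mitotic genes, in 1 of 38 (2.63%) and in 12.1%. CCAAT read on the other strand, ATTGG, can share bases with TTGGCGC. Of the 4 genes that stayed on, PCNA, MCM7 and RRM1 held the core and DUT did not. The matches describe letters, and binding was not measured.

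The 6 genes of the MCM2 to MCM7 ring were not all low to the same degree in negative cells. MCM7 was on in 54.1% of negative cells, MCM6 in 48.2%, MCM3 in 43.5% and MCM4 in 29.4%, but MCM5 in 12.9% and MCM2 in 7.06%; in BJ cells the 6 shares lay between 65.2 and 91.3%. The level of MCM6 was 18.1 in the negative fraction and 28.4 in BJ cells (-0.62) and that of MCM3 23.9 and 47.6 (-0.96), neither called. Besides these, UNG and RFC2, the genes not called were POLD1 (-0.96), POLA1, the catalytic subunit of the primase-bound polymerase (-0.70), and CCNE1 (0.20). Several of these stood near the line: leaving out 1 cell gave a call for POLD1 (-1.59), MCM3 (-1.15), POLA1 (-1.02) and RFC2 (-1.16), and turned CCNE1 to -0.40. MCM7 was called, at 20.2 and 117 (-2.47; single cells lowest 0, median 2.18, highest 244 in negative and lowest 0, median 83.1, highest 501 in BJ cells), as were MCM4 at 4.33 and 35.9 (-2.79), MCM5 at 9.15 and 92.4 (-3.20) and MCM2 at 4.602 and 34.2 (-2.65). All 6 were on in 0 of 85 negative cells (exact interval up to 4.25%), against 39 of 92 BJ cells (42.4%), 31 of 96 day-2 cells (32.3%), 49 of 92 day-8 cells (53.3%) and 38 of 95 positive cells (40%). As MCM2 was on in 7.06% of negative cells, no more than that share could have all 6 on. The median cell had 2 of the 6 on in the negative fraction and 5 in the positive fraction. In the positive fraction MCM3 had the highest level of the 6, at 219 against 160.3 for MCM7.

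**Figure D4:**
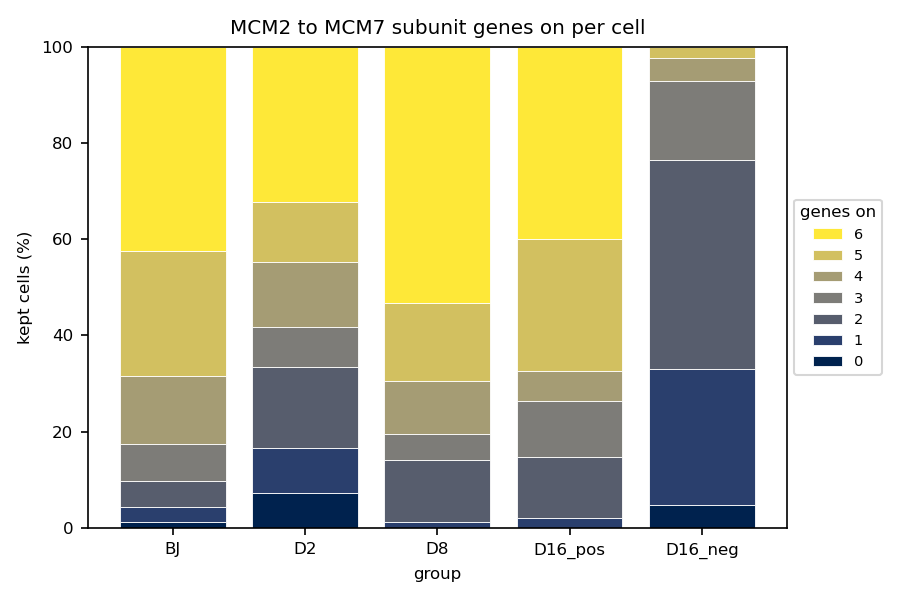
Stacked bars give the percentage of kept cells in each group with 0 to 6 of the genes MCM2 to MCM7 on. The block for all 6 genes is 42.4% for BJ, 32.3% for day 2, 53.3% for day 8 and 40% for positive cells and is missing for negative cells, where 37 of 85 cells had 2 on.

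The negative cell with most replication genes on had 24 of the 41 replication genes and 23 of 24 mitotic genes on, with 6886 genes detected. The next cells had 18 and 16 replication genes on and 3 mitotic genes each. At least 12 of the 24 mitotic genes were on together with at least 21 replication genes in 71 of 92 BJ cells, 41 of 96 day-2 cells, 64 of 92 day-8 cells, 52 of 95 positive cells and 1 of 85 negative cells. Neither was reached in 5 BJ cells, 36 day-2 cells, 18 day-8 cells, 15 positive and 83 negative cells. At least 21 replication genes without 12 mitotic ones were on in 3, 8, 4, 3 and 0 cells in the same order, and the reverse in 13, 11, 6, 25 and 1. The Spearman correlation of the 2 numbers over cells was 0.26 over 92 BJ cells, 0.74 over 96 day-2 cells, 0.61 over 92 day-8 cells, 0.79 over 95 positive cells and 0.32 over 85 negative cells. The cells of a group share a culture as far as the labels say. The number of detected genes correlated with that of replication genes at 0.59, 0.49, 0.37, 0.89 and 0.63 in the same order, and its part in the first correlation was not tested; the values are descriptions.

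**Figure D5:**
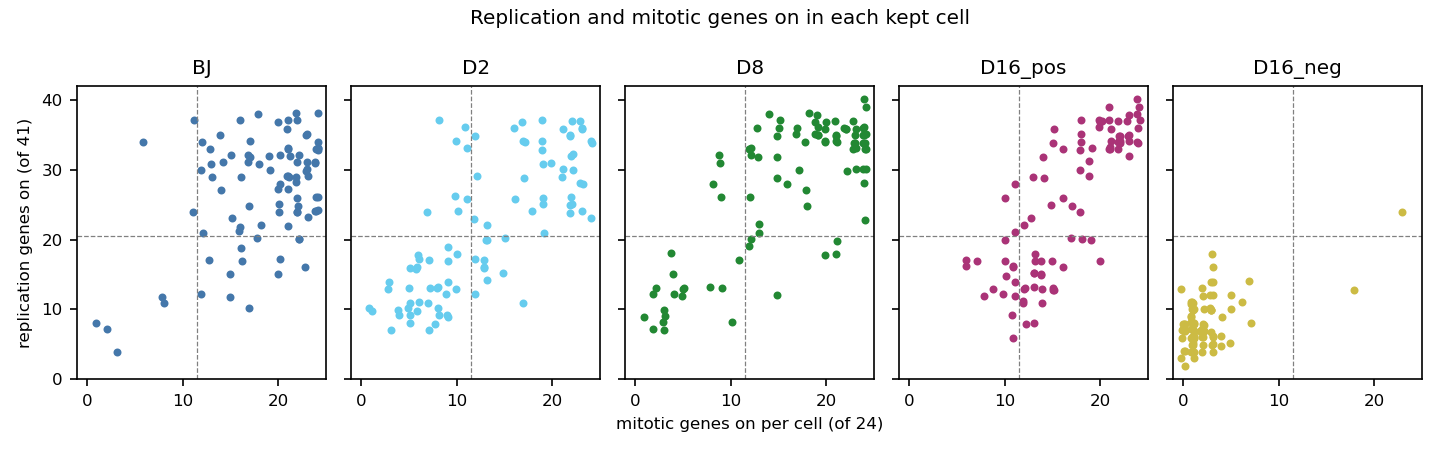
Replication genes on (of 41, vertical axis) against mitotic genes on (of 24, horizontal axis) in each kept cell, 1 panel per group, points spread slightly for sight and dashed lines just below 21 and 12 genes. Most BJ, day-8 and positive cells lie in the upper right, day-2 cells are split between the upper right (41) and lower left (36), and 83 of 85 negative cells lie in the lower left.

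Before day 16 fewer of the 41 genes were called. At day 2, 5 of them were lower than in BJ and 1 was higher, beside 12.1% of all 12480 measured genes called lower and 12.2% called higher. By the difference of mean log2(value + 1), 9 were lower by 1 or more and 0 higher, beside 4.73% and 3.68% of all genes: PCLAF (-1.87), CLSPN (-1.69), MCM7 (-1.65), TK1 (-1.60), MCM5, LIG1, DUT, ORC6 and GINS2. The share of the list against that of all genes thus depends on the measure. The median difference was -0.42, against -0.02 over all genes. Below 0 were 31 of the 41 genes, beside 6353 of all 12480. Leaving out 1 cell changed the sign for 13 of the 41. The genes called lower by the ratio of means were POLD1, the catalytic subunit of DNA polymerase delta (2.703 at day 2 and 7.89 in BJ, -1.26), LIG1 (10.7 and 25.7, -1.19), TK1 (241 and 539.9, -1.16), MCM5 (45.01 and 92.4, -1.02) and CCNE2, a second cyclin E (6.12 and 13.4, -1.01). Of these, 4 lost the call when 1 cell was left out, at -0.81 for MCM5, -0.85 for POLD1, -0.91 for LIG1 and -0.70 for CCNE2. Only 1 gene was called lower from FPKM as deposited, and likewise 1 with scaling on housekeeping genes. POLE2, a polymerase epsilon subunit, was higher (31.3 and 9.47, 1.62) with nearly the same share of cells on, 42.7% and 42.4%. GMNN averaged 237 at day 2 and 129.6 in BJ cells (0.86), but 1 day-2 cell held 54.1% of its summed level, and the difference was -0.24 without it. By share, 22 of the 41 genes were on in at least 50% of day-2 cells, against 30 in BJ, while 25.2% and 27.9% of all genes on in any cell of those groups were.

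From day 2 to day 8 the list went the other way. Of the 41 genes 6 were called higher at day 8 and none was lower, beside 13% and 12.5% of all 12577 measured genes. Above 0 were 33 of the 41, beside 6612 of all genes, with a median of 0.65 against 0.06 over all genes. Leaving out 1 cell changed the sign for 6 of the 41. By the difference of mean log2(value + 1), 19 of the 41 were higher by 1 or more and 0 lower, beside 11.5% and 3.43% of all genes, among them GMNN (1.87), MCM7 (1.85), RFC4 (1.83) and RFC3 (1.80). From FPKM as deposited 3 were called by the ratio of means. The 6 were CDC6 (56.5 at day 8 and 20.1 at day 2, 1.44), RFC5 (40.1 and 14.1, 1.44), CDT1 (22.5 and 8.12, 1.36), POLD1 (8.24 and 2.703, 1.32), CCNE1 (6.095 and 1.96, 1.26) and MCM4 (41.04 and 19.7, 1.02), which was 0.96 without 1 cell. Licensing genes, 11 of the 41, held 3 of the 6 calls, MCM4 among them. The median difference was 0.81 over licensing genes and 0.88 over clamp and loader genes. CDT1 was on in 70.7% of day-8 cells and 35.4% of day-2 cells, and CDC6 in 65.2% and 38.5%. The mean of CLSPN was lower, 16.4 at day 8 and 53.5 at day 2 (-1.65), but it was on in more cells, 72.8% and 56.2%, and 70.2% of its day-2 sum lay in 1 cell. On mean log2(value + 1) it was higher at day 8 by 0.57, so the signs differed and it was not called; without 1 cell the ratio of means gave 0.02. At day 8, 34 of the 41 genes were on in at least 50% of cells, the highest number of the 5 groups, as it was for genes at large (32.5% of genes on in any day-8 cell, against 21.6 to 31.2% in the other groups).

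Against day 8, 8 of the 41 genes were called higher in positive cells and 2 lower, beside 30.3% and 11.6% of all 13719 measured genes, and the median difference was 0.47, against 0.49 over all genes. By the difference of mean log2(value + 1) the medians had the other sign, -0.21 for the 41 genes and -0.09 for all genes. The balance turned as well: 3 genes were higher by 1 or more, GINS1 (1.52), MCM3 (1.43) and CHAF1A (1.16), and 6 lower, TK1, PCLAF, TYMS, RFC5, RRM2 and POLE2, beside 6.98% and 16.3% of all genes. Cells at 0 lower this measure, and 32 of 95 positive cells but 4 of 92 day-8 cells had fewer than 4000 genes on. With only cells of 4000 or more genes, the ratio of means called none of the 41 genes lower, and RRM2 stood at 0.007. The part of depth in this balance was not tested. Single genes ran in both directions. CCNE1 averaged 32.4 in the positive fraction and 6.095 at day 8 (2.24), POLE 15.97 and 2.88 (2.13), MCM3 219 and 58.4 (1.89), GINS1, a further GINS subunit, 42.01 and 11.6 (1.77), and POLD1 24.2 and 8.24 (1.45). The remaining 3 higher genes were CHAF1A (1.39), MCM10 (1.34) and CCNE2 (1.10), of which MCM10 and CCNE2 lost the call without 1 cell, at 0.69 and 0.84.

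TK1 and PCLAF were the 2 genes called lower by the ratio of means. TK1 averaged 539.9 in BJ, 241 on day 2 and 466 on day 8, then 186 among positive and 45.2 among negative cells. PCLAF averaged 319 in BJ, 173 on day 2 and 280.4 on day 8, then 120.1 among positive and 6.64 among negative cells. Both were highest in BJ cells and were lower in positive cells than at day 8, -1.33 and -1.22 on the log2 scale. With only cells of 4000 or more genes these differences were -0.95 and -0.78 and neither was called. TYMS averaged 158 in BJ, 108 on day 2 and 112 on day 8, then 73.04 among positive and 8.63 among negative cells, also highest in BJ and without a call against day 8 (-0.62). CCNE1 ran the opposite way and was on in 8.696% of the BJ cells, 10.4% on day 2, 29.3% on day 8, then 34.7% of positive and 5.88% of negative cells.

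Replication genes outside the list of 41 were read from a further list of 51. Between the fractions 31 of its 50 measured genes were called higher in positive cells and 2 lower, with a median of 1.45. Of all measured genes 24.8% were called higher and 21.4% lower. Against BJ 25 of 51 were lower in the negative fraction and 3 higher, with a median of -0.99, beside 13% and 31.4% of all measured genes. HELLS, a chromatin remodeller, averaged 108 in positive cells, against 0.777 in negative cells (5.94), ASF1B, a histone chaperone, 76.5 in positive cells, against 0.3802 in negative cells (5.81) and CCNA2, the S-phase and mitotic cyclin, 70.1 in positive cells, against 3.03 in negative cells (4.14). Of the 51, 16 were on in at least 50% of negative cells and 30 in at least 50% of BJ cells, beside 31.2% and 27.9% of genes at large, where the 41 had 4 and 30. They included the chaperone ASF1A (87.1%, where its relative ASF1B was at 2.35%), POLD4 (91.8%) and RRM2B (83.5%), as well as the single-stranded DNA binding subunits RPA1, RPA2 and RPA3 (69.4, 62.4 and 56.5%). In BJ the RPA genes were on in 82.6, 81.5 and 98.9% of cells. RPA3 was called lower in negative than in BJ cells (21.8 and 134.6, -2.57), while RPA1 (-0.98) and RPA2 (-0.66) were not called. The 3 genes called higher in negative cells than in BJ were RRM2B, POLD4 (1.51) and ORC5 (1.27). In positive cells RRM2B averaged 44.04 and ORC5 48.2, against 31.7 and 42.03 in negative cells. POLD4 averaged 17.9 in positive and 74.04 in negative cells. In the earlier comparisons 3 of the 51 were called higher and 6 lower at day 2 against BJ, beside 12.2% and 12.1% of all measured genes. At day 8 against day 2 the counts were 2 and 3, beside 13% and 12.5%. In positive cells against day 8 they were 11 and 1, beside 30.3% and 11.6%. As shares of the 51, none of these counts exceeded the share of all measured genes. All 24 mitotic genes were called higher in positive than in negative cells and lower in negative than in BJ cells, beside 24.8% and 13% of all measured genes. Of 7 genes of CDK inhibitors, which hold back the kinases that start S phase, 5 were called lower in positive than in negative cells. Only CDKN1B (1.48) was called higher. Of all measured genes 21.4% were called lower and 24.8% higher. By the ratio of means the widest apart were CDKN2B (2.1997 in positive cells, against 61.3 in negative cells, -4.28), CDKN2C (0.271 in positive cells, against 16.8 in negative cells, -3.80) and CDKN1A, the p53 target p21 (25.9 in positive cells, against 313 in negative cells, -3.55), followed by CDKN2A (19.5 in positive cells, against 199.6 in negative cells, -3.29). By the difference of mean log2(value + 1) the order was CDKN1A (-5.33), CDKN2A (-5.07), CDKN2B (-4.87) and CDKN2C (-1.15). Against BJ, 5 of the 7 were called higher in negative cells and none lower, beside 31.4% and 13% of all measured genes. Within the negative fraction the level of CDKN1A had a Spearman correlation of 0.12 with the number of replication genes on (n = 85 cells). Only 1 of these cells had at least 21 on. The correlation was 0.14 over 92 BJ, -0.03 over 96 day-2, -0.31 over 92 day-8 and 0.09 over 95 positive cells. With only cells of 4000 or more genes it was 0.13, -0.11, -0.36 and -0.23 in the same order, and 0.11 in negative cells.

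Some values carry a limit from the sequence itself. Of the 41 genes 8 (PCNA, RFC3, RFC5, FEN1, UNG, TYMS, RRM2 and DUT) have pseudogene copies by name in GENCODE 29, with 8 copies for DUT and 3 for PCNA, so their levels are uncertain where reads could be split. The copy of PCNA with a row of its own, PCNAP1, was on in 0% of cells in every group. Exons of 8 of the 41 genes overlap another gene with a row, among them TYMS with ENOSF1 and CCNE2 with INTS8, and no source used here says that strand was read.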

How the data were processed

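RNA of 480 single cells was measured, 96 per group. Single cells were taken up on Fluidigm C1 chips after trypsin, and Nextera XT libraries were made from their polyA cDNA, per the labels' protocols. The authors deposited FPKM, 1 table of 27021 genes per group; STAR, Cuffnorm and the build hg19 are named, without versions, in the submitters' processing notes. FPKM are not counts and give no read depth, which is unknown; the number of genes on per cell stands in for it.

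FPKM were rescaled to 1000000 per cell, and cells were kept with at least 2000 genes on and ACTB or GAPDH on, which left out 20 of 480; no pair of cells held identical values. Every column was matched to its sample by group and cell number. Comparisons were day 2 over BJ, day 8 over day 2, positive fraction over day 8, positive over negative fraction, and negative fraction over BJ. With 1 culture per group as far as the labels say, groups were compared without a test. Genes entered a comparison where 1 of its groups had a mean of at least 1. Doublets were not called; leaving out the 5% of cells with most genes was an alternative. Full values are given for the 12 genes on in most negative cells, the 5 called genes furthest apart in each direction of each comparison, and MCM2 to MCM7; of the other lists, for up to 3 called genes, with further ones chosen after their values were seen. RRM2B, ASF1A, POLD4, ORC5, CDKN1B, CDKN2A, the genes listed by mean log2(value + 1) and the RPA genes were named after their values were seen, as were the pairs of subunits compared within cells. Counts of genes on together follow in part from the share of each gene, and coupling was not tested. Members, lists and thresholds were chosen with earlier results of these data known. The calling step was tested on simulated data. Python 3.11.15, pandas 2.3.3, NumPy 2.4.6, SciPy 1.17.1 and matplotlib 3.10.9 were used. Promoter sequences came from RefSeq's GRCh38.p14 table, which matched 38 of the 41 genes; their strand was checked against GENCODE 29 transcripts, where the last bases of 32 of 38 lay in a transcript of the gene.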

Additional observations from a re-analysis of the deposited data

How the results depend on the processing

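Of the recomputed shares and counts, 129 stayed within the interval of the reported share or within 1.5 times the reported count, and 27 did not, as follows. From FPKM as deposited, at day 2 against BJ 2 genes were called higher and 1 lower, at day 8 against day 2 3 were higher, and in the positive fraction against day 8 4 were lower. Counted by the difference of mean log2(value + 1), an alternative chosen after seeing the data, 0 genes were higher and 9 lower at day 2 against BJ, 19 higher at day 8 against day 2, and 3 higher and 6 lower in the positive fraction against day 8. Scaling on housekeeping genes left 1 gene lower at day 2 and put 1 gene lower at day 8 against day 2; it also moved the median of all genes to 0.56 between the fractions and to 0.72 for the positive fraction against day 8, with the 41 genes at 3.61 and 0.74. With all 96 cells per group, 2 genes were on in at least 50% of negative cells, and likewise 2 when on meant a value of 10 or more. With cells of at least 4000 genes, 85.7% of positive cells had at least 21 genes on, and none of the 41 genes was called lower in the positive fraction than at day 8 (0 genes). When on meant 10 or more, the shares with at least 21 genes on were 53.3% in BJ, 39.6% at day 2 and 0% in the negative fraction. With at least 14 genes as the limit BJ had 91.3%, day 2 71.9%, day 8 82.6%, the positive fraction 81.1% and the negative one 7.06%; with at least 28 they were 55.4% in BJ, 33.3% at day 2 and 0% in the negative fraction. Leaving out each single cell in turn, also chosen after seeing the data, left 3 to 6 genes lower at day 2 than in BJ, against 5 with all kept cells. The cause of these shifts was not tested, apart from the limits on genes on, which set them by construction. Of the recomputed differences of called genes, 635 kept the call, 37 lost it and none changed sign. Among genes not called, signs did change, most often under the difference of mean log2(value + 1), for 19 of 31 in the positive fraction against day 8 and 9 of 35 at day 2 against BJ. Depth in reads is unknown, so a gene at 0 in a cell may be undetected. No paired analysis was possible because the cell numbers shared by the groups only name cells and no comparison rests on a test.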
